A study of Saccharomyces cerevisiae with 104 samples.

Results

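The 10 genes described here encode the enzymes that make and break down glycogen in the budding yeast Saccharomyces cerevisiae, and were chosen by name: PGM1, PGM2, UGP1, GLG1, GLG2, GSY1, GSY2, GLC3, GPH1 and GDB1. All 10 were found among the 7108 genes of each table, and 5989 of those genes were nuclear protein-coding genes. Besides 100 ChIP-exo samples, not analysed here, the series holds 4 RNA-seq libraries of total RNA, called library 1 to library 4 as names only. The labels give every sample the same text, growth at 25 °C, H2O2 at 0.3 mM for 6 min and formaldehyde crosslinking, and name no strain, genotype, untreated library or replicate. The extraction text, also shared, describes chromatin immunoprecipitation. With no groups to compare, values are given library by library, without a replicate error and without tests.

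Glycogen is a branched polymer of glucose that yeast stores when growth slows or stress sets in. Phosphoglucomutase turns glucose 6-phosphate into glucose 1-phosphate, UDP-glucose pyrophosphorylase makes the activated sugar, glycogenin starts a chain, glycogen synthase extends it and a branching enzyme adds branch points. Glycogen phosphorylase and the debranching enzyme release the glucose again. Many of these genes are known targets of the general stress factors Msn2 and Msn4.

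Abundance is given as TPM, a share of all transcripts that is corrected for gene length and counts ribosomal RNA in its total. The protein-coding share of that total was 46.9, 12.2, 21.2 and 5.77% in libraries 1 to 4, and the median nuclear protein-coding gene stood at 40.2, 7.50, 17.6 and 3.59 TPM, with a mean read depth per base (coverage) of 12.8, 3.70, 8.17 and 2.26. Values below are in the order of libraries 1, 2, 3 and 4. The level of a gene is also given as its ratio to this median gene of the same library, which removes the difference in messenger share. The same ratio holds for coverage, because TPM and coverage were proportional in each table.

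The genes spanned a wide range of levels, and neighbouring steps of the pathway could lie far apart. UGP1 was the highest of the 10 genes in each library, at 4.04 to 8.04 times the median gene, and the synthase GSY2, the branching enzyme GLC3 and the phosphoglucomutase PGM1 took ranks 2 to 4 in changing order. PGM2 took rank 5 in each library and lay near the median gene. GSY1, GLG1, GPH1, GDB1 and GLG2 lay below the median gene in each library, GLG2 at 0.0899 to 0.231 times its level. The 10 genes together held 505, 149, 187 and 75.4 TPM, which was 0.108, 0.122, 0.0882 and 0.131% of protein-coding TPM.

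**Figure D1:**
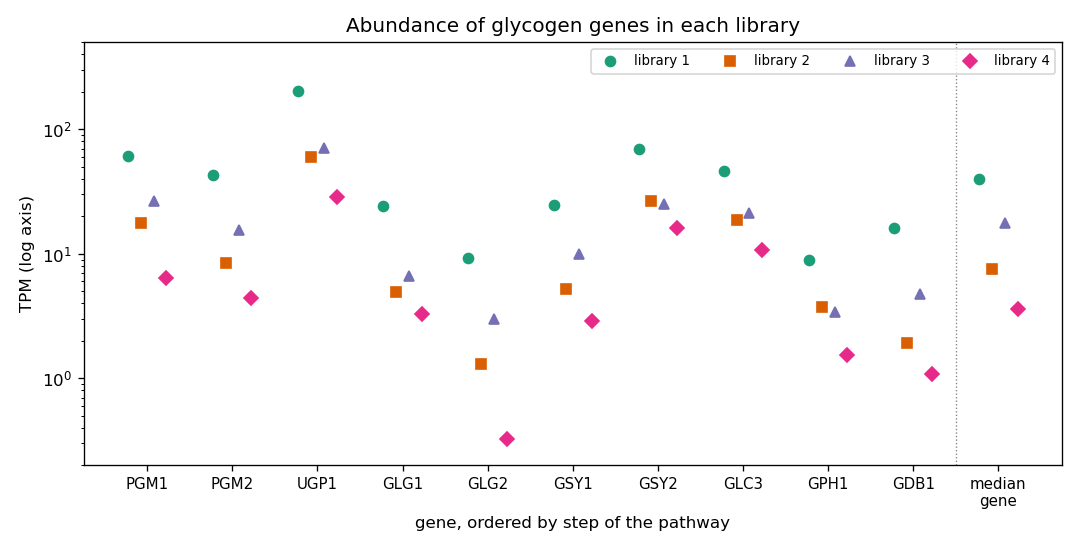
TPM (log axis) of the 10 genes and of the median nuclear protein-coding gene, with 1 point for each of the 4 libraries. UGP1 is highest and library 1 gives the highest point for each gene. The median gene itself runs from 40.2 TPM in library 1 to 3.59 TPM in library 4. GSY2 and GLC3 span about 4.29 and 4.28-fold in TPM, and GLG2 spans 28.7-fold, with very few reads in library 4. Relative to the median gene, GSY2 has the widest spread of the 10 genes, 3.13-fold, against 2.62-fold for GLC3 and 2.56-fold for GLG2.

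Precursor supply took the largest share. UGP1, which makes UDP-glucose for glycogen, trehalose and the cell wall (chromosome 11, 369891 to 371390, sacCer3), had 203, 60.3, 71.1 and 28.6 TPM, with a coverage of 64.4, 29.8, 33.01 and 17.9. It stood at 5.04, 8.04, 4.04 and 7.95 times the median gene, so libraries 2 and 4 were the higher ones on this scale although library 1 was highest in TPM. UGP1 overlaps the reading frame YKL036C on the other strand by 30 bases.

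PGM1 (chromosome 11, 203541 to 205253) and PGM2 (chromosome 13, 475897 to 477606) encode the isoforms of phosphoglucomutase, of which Pgm2 is known as the major enzyme. PGM1 had 61.4, 17.7, 26.6 and 6.44 TPM and PGM2 had 42.9, 8.51, 15.4 and 4.43 TPM. PGM1 was thus the higher messenger in 4 of 4 libraries, with a PGM2 to PGM1 ratio of 0.699, 0.480, 0.580 and 0.688. Against the median gene, PGM1 stood at 1.53, 2.36, 1.51 and 1.79 and PGM2 at 1.07, 1.14, 0.875 and 1.23. PGM2 lay above the median gene in libraries 1, 2 and 4 and below it in library 3, and it varied least of the 10 genes on this scale, by 1.41-fold. Reads from similar stretches of the 2 genes could be split between them, and the same holds for GSY1 and GSY2.

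The glycogenins, which attach the first glucose units to themselves, were low. GLG1 (chromosome 11, 552770 to 554620) had 24.1, 4.96, 6.64 and 3.29 TPM, or 0.598, 0.661, 0.377 and 0.915 times the median gene, lowest in library 3 and highest in library 4. GLG2 (chromosome 10, 154985 to 156127) had 9.27, 1.31, 3.002 and 0.323 TPM, or 0.231, 0.175, 0.170 and 0.0899 times the median gene. GLG2 to GLG1 ratios were 0.385, 0.264, 0.452 and 0.0983, so GLG2 was the lower gene in each library and furthest below GLG1 in library 4.

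The library 4 value of GLG2 rests on very few reads. Its coverage was 2.94, 0.647, 1.39 and 0.203, and coverage times gene span gave 3365, 739, 1592 and 232 aligned bases. Among genes with at most 80 aligned bases, 36, 40 and 76 were the commonest values in every library. If a read pair contributes 76 bases, GLG2 had about 44.3, 9.72, 20.9 and 3.05 pairs, so its level in library 4 is uncertain.

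Of the glycogen synthases, which add glucose to the growing chain, GSY2 was the more abundant in each library. GSY2 (chromosome 12, 660716 to 662833) had 68.98, 26.7, 25.1 and 16.1 TPM, with a coverage of 21.9, 13.2, 11.7 and 10.1. It stood at 1.72, 3.55, 1.43 and 4.47 times the median gene, at percentile 71.03, 87.5, 64.7 and 90.2 of nuclear protein-coding genes. Libraries 2 and 4 both lay above libraries 1 and 3, and the 3.13-fold spread was the widest of the 10 genes.

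GSY1 (chromosome 6, 174265 to 176391), the second synthase gene, had 24.9, 5.24, 9.91 and 2.90 TPM and stood at 0.619, 0.699, 0.563 and 0.807 times the median gene. Its spread of 1.43-fold was close to that of PGM2. The ratio of GSY2 to GSY1 was 2.77, 5.09, 2.53 and 5.54, so the GSY1 part of their summed TPM was 26.5, 16.4, 28.3 and 15.3%. This ratio is taken within a library and does not depend on its ribosomal RNA share.

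GLC3, which encodes the branching enzyme (chromosome 5, 133120 to 135234), followed GSY2 closely. It had 45.9, 18.6, 21.2 and 10.7 TPM, at a coverage of 14.6, 9.20, 9.81 and 6.74. It stood at 1.14, 2.48, 1.20 and 2.99 times the median gene, again with libraries 2 and 4 above libraries 1 and 3. GSY2 exceeded GLC3 by 1.502, 1.43, 1.19 and 1.496-fold.

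**Figure D2:**
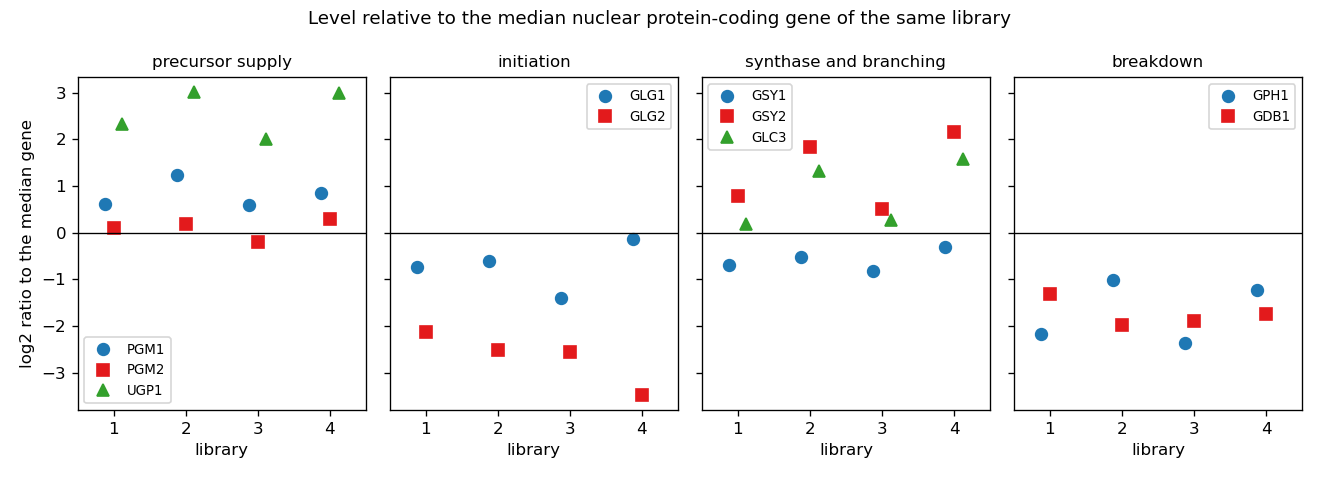
log2 ratio of each gene to the median nuclear protein-coding gene of the same library, with 1 point for each library and the 10 genes split by step of the pathway. GSY2 and GLC3 reach 2.16 and 1.58 in library 4 but 0.51 and 0.26 in library 3, while GSY1 stays between -0.83 and -0.31.

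The breakdown genes were low and differed from each other in pattern. GPH1, glycogen phosphorylase (chromosome 16, 861306 to 864014), had 8.99, 3.74, 3.41 and 1.54 TPM, with a coverage of 2.85, 1.85, 1.58 and 0.970. Against the median gene it stood at 0.223, 0.499, 0.194 and 0.430, with libraries 2 and 4 above libraries 1 and 3, as for GSY2 and GLC3. GPH1 overlaps the reading frames YPR160W-A by 81 bases and YPR160C-A by 285 bases, and the second of these was listed at 0 in each library.

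GDB1, the debranching enzyme (chromosome 16, 902044 to 906654), had 16.2, 1.91, 4.74 and 1.07 TPM, with a coverage of 5.15, 0.945, 2.20 and 0.674. Its ratio to the median gene was 0.403, 0.255, 0.269 and 0.299, highest in library 1, where GPH1 was near its lowest. GDB1 was therefore above GPH1 in libraries 1 and 3 and below it in libraries 2 and 4, with ratios of 1.80, 0.511, 1.39 and 0.695. Summed synthase TPM was 3.73, 5.64, 4.30 and 7.24 times summed breakdown TPM.

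Of the 10 genes, 5, 5, 4 and 5 lay above the median gene, against 50% of all 5989 nuclear protein-coding genes in each library, by construction. At least 2-fold above it lay 1, 4, 1 and 3 genes, where 23.5, 24.6, 23.3 and 24.6% of all genes did so. At most 0.5 times its level was reached by 3, 3, 4 and 3 genes, against 26.7, 24.4, 26.2 and 25.7% of all genes. As a set the enzymes were thus spread around the middle of the transcriptome, with a median ratio of 0.843, 0.917, 0.719 and 1.07.

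A spread of at least 2-fold in the ratio over the libraries was seen for 5 of 10 genes (GLG1, GLG2, GSY2, GLC3 and GPH1), a share close to the 44.3% of 5757 nuclear protein-coding genes above 0 in every library. UGP1, at 1.99-fold, fell just short, and GLG1, at 2.43-fold, was the nearest gene past it. Without library 4 the count was 3 (GSY2, GLC3 and GPH1), against 34.3% of all genes, so GLG1 and GLG2 passed only with that library. GLG1 also fell short without library 3, and GLG2 without library 1. A spread of 1.5-fold was reached by 8 of 10 genes and by 74.8% of all genes.

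The direction of the differences was more uniform than their size. Each gene's log2 ratio was set against its own mean over the libraries, which makes the values of a gene sum to 0, so the libraries are not separate observations. On this scale 2, 9, 1 and 8 of the 10 genes were positive, against 48.3, 51.3, 49.1 and 51.9% of all genes. Their medians were -0.16, 0.28, -0.43 and 0.34 log2 units, where those of all nuclear protein-coding genes were -0.02, 0.02, -0.01 and 0.03. Related lists had medians of the same sign in each library. Upper glycolysis, described below, had 3, 8, 0 and 6 of 8 genes positive, with medians of -0.28, 0.59, -0.54 and 0.26. Trehalose genes had 3, 5, 2 and 5 of 7 (medians -0.07, 0.28, -0.39 and 0.29), and glycogen regulators 4, 9, 3 and 9 of 13 (medians -0.14, 0.25, -0.16 and 0.33). GDB1 went the other way in libraries 1 and 2 and lay at -0.01 in library 4, and GLG2 went the other way in libraries 1, 3 and 4. GSY2 stood at -0.54, 0.51, -0.81 and 0.84, GLC3 at -0.65, 0.48, -0.57 and 0.74, and GPH1 at -0.47, 0.69, -0.68 and 0.47.

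Gene length also moved with the libraries. Over 5757 nuclear protein-coding genes, which share their libraries and are not replicates, Spearman's rho between gene span and this centred value was 0.56, -0.29, 0.15 and -0.42, so longer genes tended to be higher in libraries 1 and 3. The glycogen genes are long: 9 of 10 exceed the median span of 1239 bases, and GLG2, at 1143 bases, does not. Class 4 of 5 equal length classes holds GSY2, GLC3, UGP1, PGM1, PGM2 and GLG1. Over all genes, this class had medians of 0.17, -0.10, 0.07 and -0.14. Each of the glycogen genes in it had the opposite sign in each library. The share of all genes in the class that did so was not computed. The difference in sign was slight for PGM2 and GLG1 in library 1 (-0.004 and -0.02) and for PGM1 in library 4 (0.02). GDB1, the longest at 4611 bases, stood at 0.42, -0.24, -0.16 and -0.01, where the class of the longest genes had medians of 0.36, -0.18, 0.07 and -0.24. GDB1 was thus near genes of its length in libraries 1 and 2, and the part of length in its values was not tested. GSY1 and GPH1 are in the class of the longest genes too. GSY1 stood at -0.10, 0.07, -0.24 and 0.28, and GPH1 at -0.47, 0.69, -0.68 and 0.47. Both had the opposite sign to the class medians in each library.

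**Figure D3:**
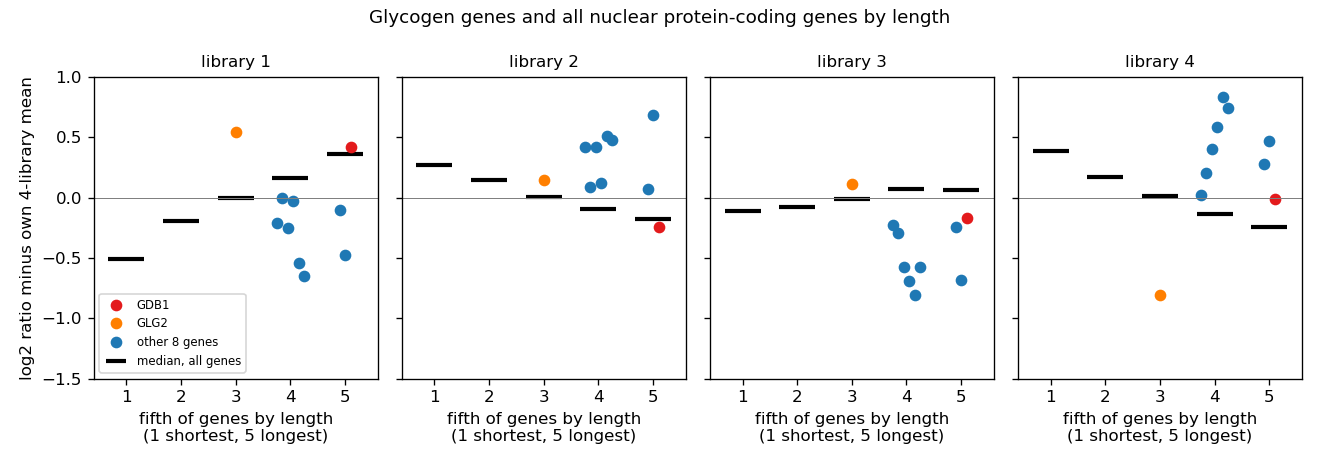
log2 ratio to the median gene minus the gene's own 4-library mean, for the 10 glycogen genes (points) and as medians of all nuclear protein-coding genes (bars) in 5 classes of gene length. In the longer classes of libraries 2 and 4 the bars lie below 0 and most points above it, while GDB1 lies at -0.24 and -0.01.

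Ratios between the genes separated steady pairs from variable ones. Of the 45 pairs, 40 kept the same order in all 4 libraries. The share among pairs of other genes was not computed, and mean gaps within a pair reached 5.25 log2 units (UGP1 to GLG2). The steadiest ratio was PGM2 to GSY1, at 1.72, 1.62, 1.55 and 1.53, followed by GSY2 to GLC3, and then by GLC3 to GPH1 at 5.11, 4.98, 6.20 and 6.95. The most variable ratios involved GLG2, and GLC3 exceeded it by 4.95, 14.2, 7.05 and 33.2-fold. At 76 bases a pair, GLG2 had about 9.72 pairs in library 2 and 3.05 in library 4, so its ratios there are uncertain. The order changed between GLC3 and PGM1, GSY2 and PGM1, GSY1 and GLG1, GPH1 and GDB1, and GPH1 and GLG2, so these neighbours could not be ranked.

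Both phosphoglucomutase genes and both glycogenin genes lie beside paralogous neighbours on the same strand. PGM1 is 453 bases from the protein kinase gene YPK1, and PGM2 is 443 bases from its paralogue YPK2. GLG1 is 366 bases from TIF1 and GLG2 is 293 bases from TIF2, which encode the same translation initiation factor, eIF4A. TIF1 had 246, 87.2, 93.5 and 33.7 TPM and TIF2 had 214, 84.4, 80.9 and 35.5 TPM, far above the glycogenin genes beside them, although reads of these near-identical copies cannot be assigned with certainty. The strandedness of the libraries is not given in the sources used here, and whether reads from these neighbours reach the glycogenin genes was not tested.

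Among the other nuclear protein-coding genes that reached a median of 10 TPM, 3606 or 3607 in number, those with the most similar centred values over the 4 libraries were listed for each gene. The pattern of GSY2 was nearest to that of HTZ1, the histone variant H2A.Z, with a largest difference of 0.06 log2 units in any library, followed by the kinase gene YAK1 (0.07) and YJR096W (0.10). GLC3 was nearest to GPD1, a glycerol 3-phosphate dehydrogenase (0.05), and GPH1 to TIF2 (0.05). GDB1 was nearest to the phosphodiesterase gene PDE2 (0.04), and GLG1 had no gene nearer than RPM2, at 0.19. Each match is the nearest of 3606 or 3607 candidates on 4 values that sum to 0. Whether any match reflects shared regulation was not tested.

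Regulators of glycogen metabolism were also spread around the median gene. Of 13 such genes, 4, 5, 4 and 6 lay above the median gene, and their median ratio was 0.594, 0.735, 0.588 and 0.805. GLC7, the protein phosphatase that activates glycogen synthase, was the highest, at 192, 38.6, 82.8 and 23.7 TPM, or 4.78, 5.14, 4.70 and 6.60 times the median gene. GLC8, a regulator of that phosphatase, stood at 1.90, 3.73, 2.75 and 4.97 times the median gene. The lowest were GIP2, a putative targeting subunit of the phosphatase, at 0.0577, 0.160, 0.0870 and 0.165 times, and SGA1, the sporulation glucoamylase, at 0.0574, 0.0938, 0.0418 and 0.132 times, both with a coverage below 1 in each library.

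Trehalose genes, of the other storage sugar, stood higher than the glycogen genes. Of 7 genes, 6, 5, 6 and 5 lay above the median gene, with a median ratio of 2.25, 3.76, 1.67 and 3.94. TPS1, the trehalose 6-phosphate synthase, stood at 6.12, 9.02, 5.52 and 8.89 times the median gene, and TPS2, the phosphatase of that pathway, at 3.13, 6.34, 2.61 and 7.12 times. The trehalases NTH2 and ATH1 were the lowest, at 1.33, 0.682, 1.17 and 0.814 times and at 0.458, 0.324, 0.377 and 0.323 times. TPS1 and TPS2 were higher in libraries 2 and 4, as were GSY2 and GLC3, while NTH2 and ATH1 were highest in library 1, as was GDB1. NTH1, also a trehalase gene, stood at 3.87, 3.76, 3.28 and 3.94 times the median gene, highest in library 4. GPH1, a breakdown gene of glycogen, was higher in libraries 2 and 4, so the breakdown genes did not share a pattern.

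Upper glycolysis was higher still, with 8, 8, 7 and 7 of 8 genes above the median gene and median ratios of 10.7, 16.4, 9.28 and 12.7. The aldolase FBA1 and the isomerase TPI1 were its highest genes, at 29.2, 151, 27.5 and 107 times and at 15.1, 60.9, 19.1 and 48.9 times the median gene. GLK1, glucokinase, stood at 7.88, 8.13, 6.89 and 7.64 times. HXK1, a hexokinase that makes the substrate of phosphoglucomutase, had 86.8, 14.1, 0.488 and 0.475 TPM, with a coverage of 27.6, 6.95, 0.226 and 0.298, so it was nearly absent from libraries 3 and 4. HXK2, also listed for hexose phosphorylation, had a coverage of 235, 74.2, 117 and 32.8, above that of HXK1 in each library. The low HXK1 level therefore does not mean that messengers for this step were missing from libraries 3 and 4. UGP1, PGM1 and PGM2, which act after hexose phosphorylation, had a coverage of at least 2.78 in each library.

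**Figure D4:**
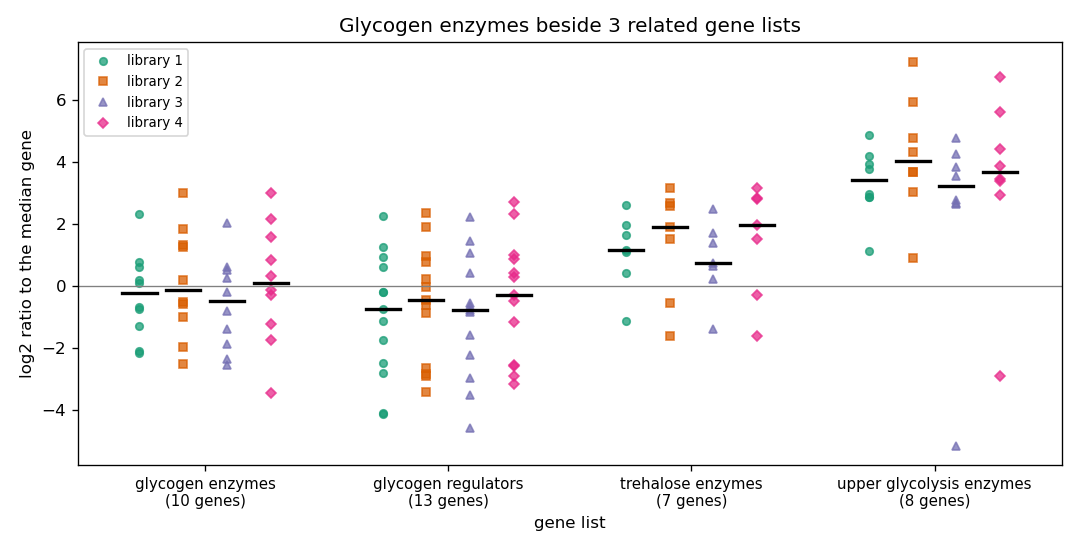
log2 ratio to the median gene for the glycogen enzymes and for 3 related gene lists, with 1 point per gene and library and a bar at the median of each list in each library. The bars of the 10 glycogen enzymes lie between -0.48 and 0.10, those of the 7 trehalose enzymes between 0.74 and 1.98.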

How the data were processed

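Each RNA-seq library came as a table of 7108 genes, with coverage (a signal, the mean read depth per base), FPKM and TPM as the authors deposited them. Coverage times span summed to 302, 218, 236 and 190 megabases in libraries 1 to 4. The submitters' processing notes name the build sacCer3 and the tools BWA, Picard and SAMtools for the whole series; the RNA-seq aligner, estimator and strandedness are not given in the sources used here. Read counts are unknown, so no intervals were computed.

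A RefSeq gene table (R64) matched 6011 identifiers, gave the protein-coding class and held the same positions for all 10 genes. TPM was divided by the median of 5989 nuclear protein-coding genes, with no pseudocount. Python 3.11.15, numpy 2.4.6, pandas 2.3.3 and matplotlib 3.10.9 were used. The arithmetic of the ratios was checked on simulated data without read noise, which does not check the spreads given here.

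The genes and lists were chosen with earlier results of these data known. From each related list the 2 genes of highest and the 2 of lowest median ratio were named, with neighbours within 500 bases. HXK2 and NTH1 were named in addition. Alternatives were a pseudocount of 1, a reference of genes whose median TPM reached 1, coverage, the 75th percentile gene, median-ratio scaling and each library left out. Centred values, length classes and a 1.5-fold limit were added after seeing the data.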

Additional observations from a re-analysis of the deposited data

How the results depend on the processing

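Coverage in place of TPM gave the same numbers of genes above the median gene and the same median log2 ratios. The count of 2-fold spreads and the paralogue ratios were also the same. TPM and coverage were proportional in each table, so this outcome was fixed in advance and is no separate check. Coverage was not run for the centred medians. With a reference of genes whose median TPM reached 1, both counts were the same, and the median log2 ratios and centred medians moved by no more than 1 SD (over the libraries and over the genes, respectively). Against the 75th percentile gene, 1, 4, 1 and 3 genes lay above it in libraries 1 to 4, and the median log2 ratios were -1.18, -1.10, -1.41 and -0.87, so the sign in library 4 turned from 0.10, which follows from the higher reference. With a pseudocount of 1 the log2 ratio of GLG2 to GLG1 in library 4 was -1.70 in place of -3.35, and GLG2 was no longer among genes with a 2-fold spread (4 genes). That spread was reached by 3 to 5 genes with 1 library left out, by 5 with median-ratio scaling, and a spread of 1.5-fold by 8 genes. The centred medians kept their sign with each library left out. No paired analysis was possible because the labels put no library in a group. By coverage, depth limits GLG2, GDB1 and GPH1 most, with 3 genes under a coverage of 1 in library 4 and 2 in library 2. At 76 bases a pair, GDB1 had about 312, 57.4, 133 and 40.9 pairs in libraries 1 to 4. GLG1 had 186, 59.7, 75.1 and 50.3, so by pairs GDB1 was the lower of the 2 only in libraries 2 and 4.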
